A study of Homo sapiens with 18 samples.

Results

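The genes described here are 10 early-response genes outside the AP-1 family, namely EGR1, EGR2, EGR3, NR4A1, NR4A2, NR4A3, IER2, IER3, IER5 and SRF. They were chosen by name, with earlier results of these data known. Each was found once by its Ensembl identifier, and together they make up 10 of the 58302 genes counted. The RNA-seq data came from 4 libraries of U87MG, an established human glioblastoma cell line that was grown in DMEM with serum. In the labels, 2 biological replicates are control cells under normal growth conditions, with WT in their titles. The other 2 are cells given Erastin at 10 μM for 72 h. Erastin is a small molecule that blocks the cystine transporter system Xc- and is used to induce ferroptosis, an iron-dependent form of cell death. The labels of the control libraries name no vehicle, and all 4 libraries are of a single cell line.

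Early-response genes are transcribed within a short time after serum, growth factors or stress, from factors already present in the cell, and their RNAs are mostly short-lived. SRF binds the CArG box of their promoters, together with ETS factors such as ELK1, which ERK kinases switch on, or with MRTF cofactors, which are released when actin polymerizes. CREB and its relatives act at the cyclic AMP response element. EGR proteins are zinc finger transcription factors that bind GC-rich sites, and NR4A proteins are nuclear receptors that act without a known ligand. The products of the IER genes are small nuclear or regulatory proteins without a DNA-binding domain of those kinds.

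To show the sequences through which these genes are known to be controlled, the bases before the transcription start were read from RefSeq (GRCh38.p14). Windows of 250 bases were used for 7 of the 10 genes, 11 windows in all since some genes have several starts. No window was used for EGR3, NR4A2 or IER3, so the motif matches below do not cover them. EGR1, SRF and EGR2 are shown because their windows hold a CArG box (CC, 6 bases that are each A or T, and GG), which is in capitals. NR4A3 is shown for the core of the cyclic AMP response element, TGACG on either strand, in capitals. The windows are chr5:138465229-138465478 (plus strand) for EGR1, chr6:43171019-43171268 (plus strand) for SRF, chr10:62816367-62816616 (minus strand) for the EGR2 start nearest to its coding part, and chr9:99821635-99821884 (plus strand) for NR4A3, each written 5′ to 3′.
EGR1: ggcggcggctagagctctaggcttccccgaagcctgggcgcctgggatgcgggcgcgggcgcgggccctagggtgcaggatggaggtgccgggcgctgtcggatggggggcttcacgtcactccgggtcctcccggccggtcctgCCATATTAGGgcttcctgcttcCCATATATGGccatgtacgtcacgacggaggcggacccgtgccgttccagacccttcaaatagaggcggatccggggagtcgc
SRF: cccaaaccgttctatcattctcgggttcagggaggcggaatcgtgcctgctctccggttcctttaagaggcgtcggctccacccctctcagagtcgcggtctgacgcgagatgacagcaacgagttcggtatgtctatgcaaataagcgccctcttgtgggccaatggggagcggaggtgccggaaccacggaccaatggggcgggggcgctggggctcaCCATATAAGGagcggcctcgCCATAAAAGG
EGR2: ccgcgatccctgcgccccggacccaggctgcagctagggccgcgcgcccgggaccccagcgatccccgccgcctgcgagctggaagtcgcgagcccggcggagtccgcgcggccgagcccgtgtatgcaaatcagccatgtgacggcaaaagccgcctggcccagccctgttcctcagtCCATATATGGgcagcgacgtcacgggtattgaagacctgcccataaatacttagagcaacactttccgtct
NR4A3: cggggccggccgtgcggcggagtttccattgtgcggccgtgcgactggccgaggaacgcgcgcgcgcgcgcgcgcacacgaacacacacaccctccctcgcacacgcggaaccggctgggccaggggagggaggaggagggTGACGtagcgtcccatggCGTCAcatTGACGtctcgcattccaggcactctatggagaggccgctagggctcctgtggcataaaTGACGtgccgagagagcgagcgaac
A CArG box was found in 1.16% of the 35114 RefSeq windows searched on both strands. EGR1 and SRF each hold 2 of them in the windows shown, as did 11 windows in all (0.0313%). SRF holds none at its other start, and EGR2 holds 1 at the start shown and none at its other starts. TGACG was found in 21.2% of all windows and in those of EGR1, EGR2, NR4A3, IER2 and SRF. NR4A3 holds 4 of these cores, a number reached or passed by 0.236% of windows. The ETS site CCGGAA (14.5% of all windows) was found before NR4A1, IER2, IER5 and SRF, and the EGR site GCGGGGGCG (4.72%) before SRF. The NR4A response element AAAGGTCA (1.05%) was not found in any of the 11 windows. CArG boxes and TGACG do not share bases in the windows shown. A match describes the letters only, and binding was not measured in these libraries.

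**Figure D1:**
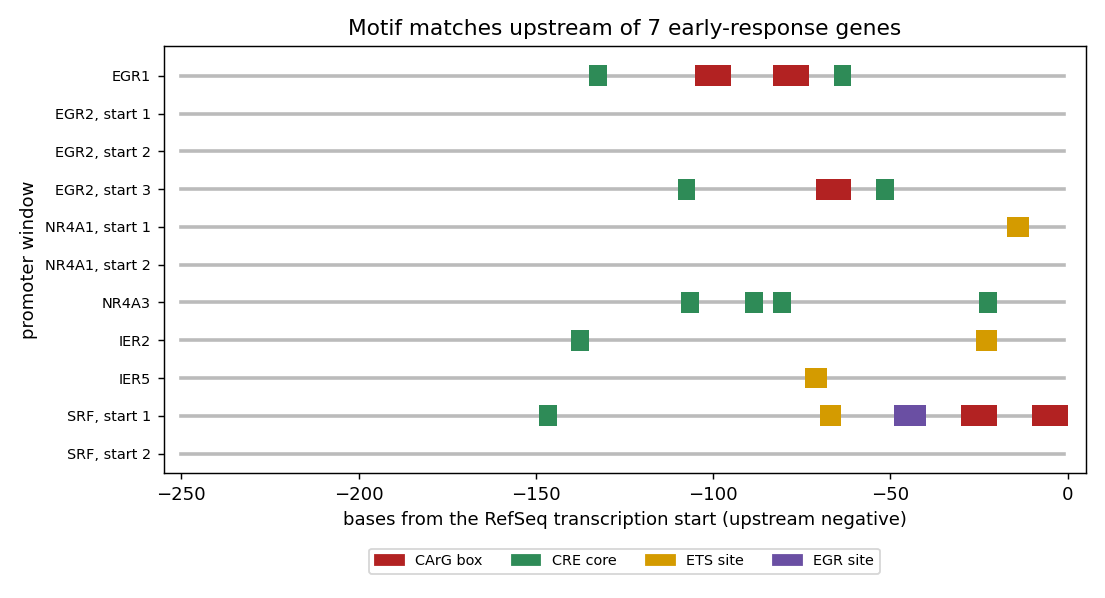
Motif matches in the 250 bases before 11 RefSeq transcription starts of 7 genes. The x axis gives bases from the start, each grey line is a single window, and coloured blocks mark the matches. CArG boxes lie in the windows of EGR1, of 1 of the SRF starts and of 1 of the EGR2 starts.

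The deposited values are the authors' raw read counts per gene. Totals lay between 29412656 and 31513519 counts per library. Counts were scaled by library size to CPM with TMM factors and tested with edgeR's quasi-likelihood test over 16751 genes, with Benjamini-Hochberg adjustment over all of them. A gene is said to have risen or fallen when its adjusted p was under 0.05, and to be called when the log2 fold change was also at least 1 in size, the thresholds of the study. VIM and CD44, usual in mesenchymal glioma lines, had at least 31559 counts in every library. NES, which encodes nestin of the same marker list, had 1277 and 972 counts in control cells and 105 and 77 with Erastin (log2 fold change −3.62, called lower). Of the markers of other cells, the leukocyte gene PTPRC had at most 1 count, EPCAM at most 14 and SYP at most 54, and the endothelial gene PECAM1 had 138 and 188 against 31 and 33 (log2 fold change −2.34, called lower). The glial genes GFAP and S100B had at most 81 and 2 counts, so these markers of the labelled tissue, brain, were low or near 0. Transcripts of the mitochondrial genome took 7.23% to 7.85% of the counts of control cells and 2.80% to 3.54% of those of Erastin-treated cells, and the part of this shift in the results below was not tested.

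In Erastin-treated cells EGR1, NR4A1 and IER2 fell, IER3 and IER5 rose, and EGR2, NR4A2, NR4A3 and SRF did not pass the test. EGR3 was too low to be tested. The 5 genes that passed make up 55.6% of the 9 tested, where 47.0% of all tested genes passed (23.2% rose and 23.7% fell). Of the 9 genes 0 were called by edgeR and 0 by DESeq2, where edgeR called 15.6% of all tested genes (6.24% higher and 9.34% lower), and 6 of the 9 had an unadjusted p under 0.05. With single libraries left out this call changed for genes with few counts. NR4A1 and NR4A2 were called lower without control replicate 2, NR4A1 without Erastin replicate 1 and NR4A2 without Erastin replicate 2. IER3 was called higher without Erastin replicate 2. In 4 of the 9 genes both Erastin libraries were higher than both control libraries, and in 5 both were lower, against 36.7% and 36.9% of all tested genes. The log2 fold changes (Erastin minus control) ran from −0.93 to 0.85, with a median of −0.25 over the 9 genes and −0.00259 over all tested genes. In bulk RNA, fewer cells that express a gene and less RNA of it per cell cannot be told apart. With 2 libraries per group the smallest two-sided p of an exact permutation test is 0.333, and the p-values given here draw on the spread of all genes.

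**Figure D2:**
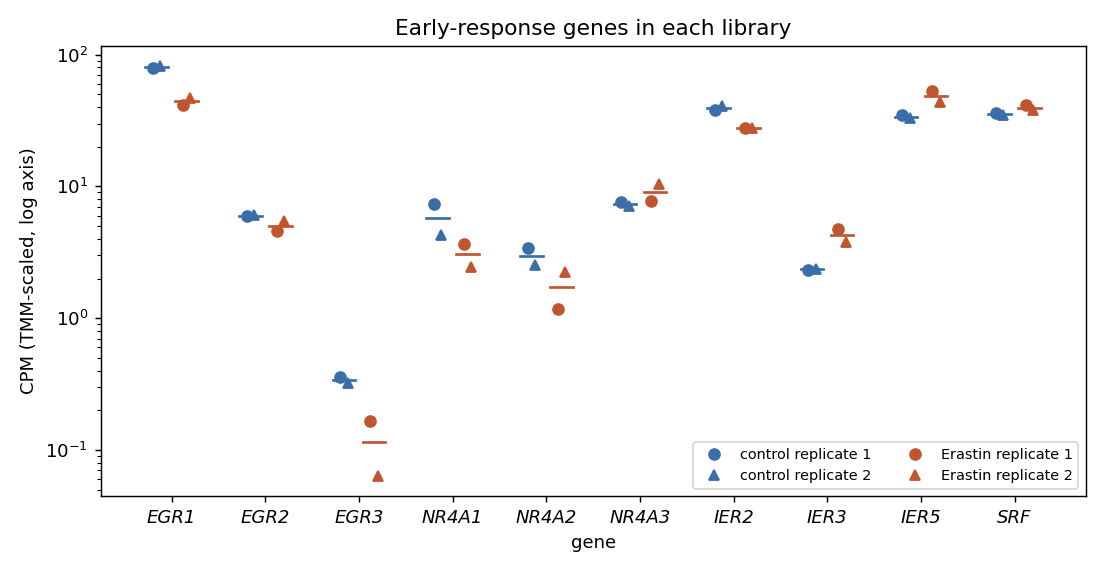
TMM-scaled CPM of the 10 genes (log axis) in each of the 4 libraries; circles and triangles are replicates 1 and 2, and bars are the means of 2 libraries. The groups stand apart for EGR1 (79.8 and 81.5 against 41.7 and 47.3 CPM) and lie close for EGR2 and SRF, and the replicates of NR4A1, NR4A2 and EGR3 spread most.

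EGR1, whose protein is the EGR factor most widely induced by growth factors, lies on chromosome 5 of GRCh38 from 138465490 to 138469315. Control cells gave 2441 and 2531 counts and Erastin-treated cells 1246 and 1485. Scaled to library size, this was 79.8 and 81.5 CPM in control cells and 41.7 and 47.3 CPM in Erastin-treated cells. Both Erastin libraries were well below both control libraries. Means were 80.7 ± 1.16 CPM (SD, n = 2) without and 44.5 ± 3.96 CPM (SD, n = 2) with Erastin, 1.81-fold lower. The log2 fold change was −0.86 (standard error 0.0843, 95% interval −1.04 to −0.67, adjusted p = 6.05e-06 from edgeR). EGR1 had the smallest adjusted p of the 9 genes tested.

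EGR2, known for its roles in the hindbrain and in myelinating Schwann cells, lies on chromosome 10 from 62811996 to 62919900. It had 5.95 and 6.05 CPM in control cells, against 4.61 and 5.44 CPM in Erastin-treated cells. The groups did not overlap, but Erastin replicate 2 lay nearer to the control libraries than to Erastin replicate 1. Its log2 fold change of −0.25 (95% interval −0.70 to 0.19, adjusted p = 0.336 from edgeR) did not pass, and the interval leaves room for a fall like that of IER2. EGR3, an EGR factor of muscle spindles and lymphocytes, had 11 and 10 counts in control cells and 5 and 2 after Erastin. These counts were below the filter on low values. Without the filter its log2 fold change was −1.54 with an adjusted p of 0.390 from edgeR, so a difference was not detectable at this depth.

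NR4A1, which encodes the orphan nuclear receptor Nur77, lies on chromosome 12 from 52022832 to 52059507. Control cells gave 224 and 132 counts and Erastin-treated cells 109 and 77, or 7.33 and 4.25 CPM against 3.64 and 2.45 CPM. The lower control library lay only a little above the higher Erastin library, and the 2 control libraries differed by 72.4%. NR4A1 fell by 0.93 on the log2 scale (standard error 0.303, 95% interval −1.59 to −0.26, adjusted p = 0.0252 from edgeR). This was the largest fall among the 9 genes by size and also one of the least precise. Without control replicate 1 the log2 fold change was −0.48 (adjusted p = 0.236 from edgeR), and without Erastin replicate 2 it was −0.67 (adjusted p = 0.120 from edgeR). The antisense gene NR4A1AS shares 754 of the 7295 exon bases of NR4A1, and reads on shared bases were not counted for either gene.

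NR4A2, which encodes Nurr1, a factor needed by midbrain dopamine neurons, lies on chromosome 2 from 156324432 to 156342348. It had 3.43 and 2.54 CPM in control cells and 1.17 and 2.26 CPM in Erastin-treated cells. The Erastin libraries were both lower, but differed from each other by 93.1%. Its log2 fold change of −0.80 (95% interval −1.59 to −0.000522, adjusted p = 0.0939 from edgeR) did not pass. Without Erastin replicate 2 it was −1.35 (adjusted p = 0.0130 from edgeR) and without control replicate 2 it also passed (adjusted p = 0.0273 from edgeR), so the call on NR4A2 turned on single libraries.

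NR4A3, which encodes NOR1 and has 4 TGACG cores in the window shown above, lies on chromosome 9 from 99821855 to 99866891. It had 7.62 and 7.11 CPM in control cells and 7.79 and 10.4 CPM in Erastin-treated cells. Only Erastin replicate 2 stood clearly above the control libraries. The log2 fold change of 0.30 (95% interval −0.11 to 0.71, adjusted p = 0.212 from edgeR) did not pass. Within the NR4A family, levels can be compared after division by exon length (TPM, scaled to the same total in each library). NR4A3 made up 39.2% and 47.9% of the summed TPM of the 3 NR4A genes in control cells, against 60.8% and 64.5% in Erastin-treated cells. NR4A1 made up 32.6% and 24.8% in control libraries and 24.6% and 13.2% in Erastin libraries, and NR4A2 made up 28.1% and 27.3% against 14.5% and 22.3%. NR4A3's share was thus higher in both Erastin libraries than in both control libraries. Over the exon bases that no other gene shares, NR4A3 made up 37.8% and 46.6% against 59.1% and 63.5%. With 2 libraries per group this difference in shares was not tested.

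IER2, which encodes a nuclear protein induced by serum, lies on chromosome 19 from 13150415 to 13154908. It had 38.3 and 40.4 CPM in control cells, against 27.6 and 28.0 CPM in Erastin-treated cells. The replicates lay close together in both groups and the groups were well apart. IER2 fell by 0.50 on the log2 scale (standard error 0.0967, 95% interval −0.71 to −0.29, adjusted p = 0.00116 from edgeR), 1.42-fold lower. An antisense gene shares 946 of its 3072 exon bases, on which reads were not counted.

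IER5, a gene known as a target of p53 and as an activator of the heat shock factor HSF1, lies on chromosome 1 from 181088712 to 181092899. Control cells gave 1064 and 1023 counts and Erastin-treated cells 1589 and 1375, or 34.8 and 32.9 CPM against 53.1 and 43.8 CPM. Both Erastin libraries were above both control libraries. IER5 rose by 0.52 on the log2 scale (standard error 0.107, 95% interval 0.28 to 0.75, adjusted p = 0.00191 from edgeR), 1.43-fold higher. Within the IER family, levels turned on the exon length used for IER2. Over all exon bases, IER2 had 42.2 and 46.4 TPM in control cells and 35.8 and 35.6 TPM with Erastin, beside 28.1 and 27.7 TPM and then 50.5 and 40.8 TPM of IER5. Over the 2126 exon bases of IER2 that no other gene shares, it had 60.9 and 67.1 TPM in control cells and 51.7 and 51.4 TPM with Erastin. IER2 was thus above IER5 in both control libraries by either length, and the order of the pair in Erastin-treated cells depended on the length.

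IER3, which encodes a regulator of cell survival and is a known target of NF-kB and p53, lies on chromosome 6 from 30743199 to 30744554, within the major histocompatibility region. Only 71 and 74 counts came from control cells and 141 and 119 from Erastin-treated cells, or 2.32 and 2.38 CPM against 4.71 and 3.79 CPM. Both Erastin libraries were above both control libraries. IER3 rose by 0.85 on the log2 scale (standard error 0.265, 95% interval 0.27 to 1.43, adjusted p = 0.0198 from edgeR), 1.80-fold higher. DESeq2 gave 0.86 with an adjusted p of 0.0610, and without Erastin replicate 1 edgeR gave 0.68 with an adjusted p of 0.119. Alternate scaffolds of the GRCh38 assembly repeat 97.7% of its transcript (the longest one, cut into words of 31 bases), and multiply matching reads had been left out of the counts. In the other 9 genes this share was at most 1.22%. The protein-coding genes within 100 kb of IER3, which include the tubulin gene TUBB with 99.2% of such words, had at most 32 counts in any library. The part of these repeats in the count of IER3 was not tested, and its level is not set beside those of the other genes. The antisense gene IER3-AS1 also shares 359 of its 1356 exon bases.

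SRF, the transcription factor of the CArG box, lies on chromosome 6 from 43171299 to 43181507. Control cells gave 1105 and 1090 counts and Erastin-treated cells 1245 and 1186, or 36.1 and 35.1 CPM against 41.6 and 37.7 CPM. The groups did not overlap, but the lower Erastin library was close to the control libraries. Its change of 0.16 on the log2 scale (standard error 0.0960, 95% interval −0.05 to 0.37, adjusted p = 0.208 from edgeR) did not pass. SRF and EGR1 both hold a pair of CArG boxes in the windows shown, and their log2 fold changes were 0.16 and −0.86.

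**Figure D3:**
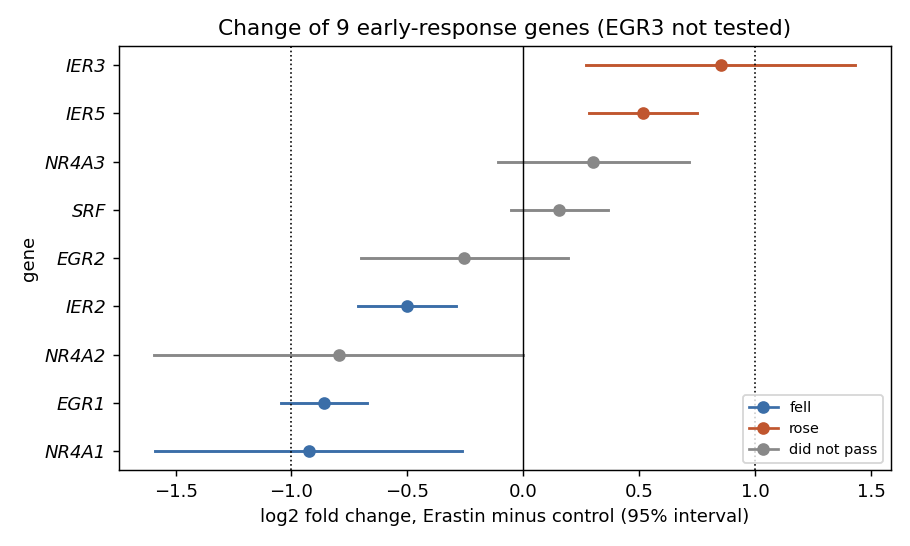
Log2 fold change (Erastin minus control) of the 9 tested genes with 95% intervals from edgeR; blue fell, orange rose, grey did not pass, and dotted lines mark a log2 fold change of 1 in either direction. EGR1, NR4A1 and IER2 lie below 0 and IER5 and IER3 above it, with wide intervals for NR4A1, NR4A2 and IER3, which had few counts.

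Per exon length, the order of the levels in control cells was EGR1 (88.8 TPM), IER2 (44.3 TPM), SRF (29.3 TPM), IER5 (27.9 TPM), EGR2 (5.62 TPM), NR4A3 (4.03 TPM), NR4A1 (2.73 TPM), NR4A2 (2.59 TPM) and EGR3 (0.242 TPM), with IER3 left out because of the repeats on alternate scaffolds. The ranges of neighbours in this order did not overlap between the 2 libraries, except those of NR4A1 and NR4A2. In Erastin-treated cells the order was EGR1 (55.8 TPM), IER5 (45.6 TPM), SRF (37.2 TPM), IER2 (35.7 TPM), NR4A3 (5.66 TPM), EGR2 (5.37 TPM), NR4A2 (1.70 TPM), NR4A1 (1.65 TPM) and EGR3 (0.0941 TPM). The ranges of SRF and IER2, of NR4A3 and EGR2, and of NR4A2 and NR4A1 overlapped in these libraries. These levels divide by all exon bases, although reads on bases shared with another gene were not counted. Over unshared bases only, IER2 had 64.0 TPM in control cells and 51.6 TPM with Erastin, which puts it above IER5 and SRF in both groups, and NR4A1 had 3.04 and 1.84 TPM, still overlapping NR4A2. EGR1 was the most abundant of the genes in both groups by either length and made up at least 91.0% of the summed TPM of the EGR family in every library. TPM levels of a gene were not tested between the groups, because TPM moved the median of all tested genes by 0.19 on the log2 scale.

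The genes around this set were described by 5 lists of known partners and pathway genes. The lists were chosen with earlier results of these data known. Their shares and medians beside those of all genes are therefore a description and were not tested. Among the cofactors and relatives, 10 of 14 genes were tested, of which 1 rose, 4 fell and 0 were called by edgeR (5 had an unadjusted p under 0.05). Genes that passed made up 50.0% of those tested, close to the 47.0% of all tested genes, of which 15.6% were called. MRTFB, an actin-regulated cofactor of SRF, had 85.2 and 88.5 CPM in control cells and 49.3 and 51.1 CPM in Erastin-treated cells. MRTFB fell by 0.79 on the log2 scale (standard error 0.0748, adjusted p = 4.55e-06 from edgeR), and its relative MRTFA had a log2 fold change of 0.17 that did not pass (adjusted p = 0.201 from edgeR). The ETS factor ELK3 fell by 0.44, IER5L, a relative of IER5, fell by 0.83, and RXRA, a partner of NR4A1 and NR4A2, fell by 0.40. FHL2, an SRF cofactor and target, rose by 0.54. These are log2 fold changes, with an adjusted p of at most 0.0273 from edgeR. The ETS factors ELK1 and ELK4 had log2 fold changes of 0.11 and 0.17 and did not pass (adjusted p = 0.269 and 0.107 from edgeR). NAB1 and NAB2, the co-repressors of EGR proteins, had log2 fold changes of 0.07 and −0.10 and did not pass. Of the other RXR genes, RXRB had at most 4 counts in any library and RXRG had 0, so neither was tested. Alternate scaffolds of the assembly repeat 91.3% of the transcript of RXRB, cut into words of 31 bases. The partners named here were chosen after their values were seen, since none was called.

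All 8 AP-1 genes were tested, of which 3 rose and 5 fell, where 47.0% of all tested genes passed. Of the 8 genes 1 was called higher and 2 lower, where 6.24% and 9.34% of all tested genes were. The list's median log2 fold change was −0.33, against −0.00259 over all tested genes. FOS, a classical target of SRF, had 103 and 104 CPM in control cells and 17.2 and 14.4 CPM in Erastin-treated cells. FOS fell by 2.72 on the log2 scale (standard error 0.0972, adjusted p = 1.54e-09 from edgeR). ATF3, a stress-induced factor, rose from 27.8 and 27.4 CPM to 129 and 134 CPM, by 2.25 on the log2 scale (standard error 0.0752, adjusted p = 1.01e-09 from edgeR). FOS and EGR1 thus both fell, and the log2 fold change of FOS was the larger in size.

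Of 44 other early-response genes outside AP-1, 41 were tested, of which 21 rose and 10 fell, and 9 were called higher and 3 lower. Genes that passed made up 75.6% of those tested, against 47.0% of all tested genes. Called genes made up 29.3% of those tested, against 15.6% of all tested genes, and the median log2 fold change was 0.25, against −0.00259. As the list was chosen with earlier results of these data known, these differences from all genes are a description only. BTG2, an antiproliferative gene and target of p53, rose from 2.55 and 2.51 CPM to 34.2 and 37.4 CPM, a log2 fold change of 3.82. RHOB, which encodes a stress-induced GTPase, rose from 11.1 and 8.88 CPM to 89.8 and 95.4 CPM, a log2 fold change of 3.21. PPP1R15A, which encodes the eIF2α phosphatase subunit GADD34, and PLK3, a stress-induced kinase, rose by log2 fold changes of 2.03 and 1.79. For these 4 genes the adjusted p from edgeR was at most 2.47e-08. These 4 genes were chosen as called genes, so their distance from the control libraries is a description. Named after their values were seen, the genes of this list called lower were DUSP6 (−1.52), ZFP36L1 (−1.30) and THBS1 (−1.19). They encode a phosphatase of ERK, an RNA-binding protein and the matrix protein thrombospondin 1. THBS1 had only 4.71 and 3.51 CPM in control cells and 1.81 and 1.78 CPM with Erastin, below the mean level set for named genes. Its 95% interval was −1.82 to −0.57.

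Of 25 actin cytoskeleton targets of SRF with MRTF, 24 were tested, of which 4 rose and 11 fell, and 1 was called higher and 3 lower. Genes that passed made up 62.5% of those tested, against 47.0% of all tested genes. Called genes made up 16.7% of those tested, close to the 15.6% of all tested genes, and the median log2 fold change was −0.16. CNN2, which encodes the actin-binding protein calponin 2, fell from 142 and 115 CPM to 36.1 and 32.0 CPM, a log2 fold change of −1.92. FHL1, which encodes a LIM protein, fell from 65.9 and 75.0 CPM to 23.1 and 26.5 CPM. VCL, which encodes vinculin, fell by 1.04 on the log2 scale, and by 0.995 with library totals in place of TMM, where it was no longer called. ACTA2, which encodes smooth muscle actin, rose from 12.6 and 13.7 CPM to 31.1 and 30.3 CPM, a log2 fold change of 1.23. For these 4 genes the adjusted p from edgeR was at most 4.17e-06.

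The last list held 19 genes, which were ERK pathway kinases, CREB family factors and coactivators (CRTC1, CRTC2, CRTC3, CREBBP and EP300). Of these, 18 were tested, of which 10 rose and 3 fell, and 0 were called higher and 1 lower. Genes that passed made up 72.2% of those tested, against 47.0% of all tested genes. Called genes made up 5.56% of those tested, against 15.6% of all tested genes, and the median log2 fold change was 0.19. The gene called lower was RPS6KA5, which encodes a kinase that phosphorylates CREB and histone H3, with 6.18 and 5.60 CPM in control cells and 1.91 and 2.48 CPM in Erastin-treated cells (log2 fold change −1.42, adjusted p = 0.000610 from edgeR). It was named after its values were seen, as its mean level was below that set for named genes.

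**Figure D4:**
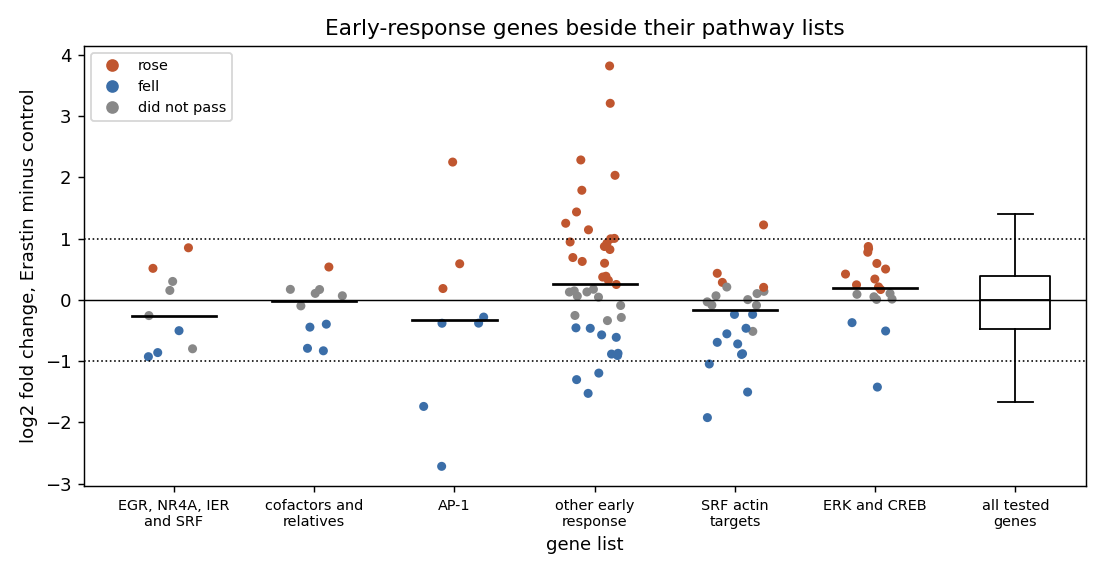
Log2 fold change (Erastin minus control) of each tested gene of the EGR, NR4A, IER and SRF set and of 5 related lists, with black bars at the medians; the box shows the quartiles of all 16751 tested genes and its whiskers the percentiles 5 and 95. Orange genes rose, blue genes fell and grey genes did not pass; the 9 genes of the set stay within 1 in either direction, whereas FOS reaches −2.72 and BTG2 3.82.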

How the data were processed

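RNA-seq libraries of 2 control and 2 Erastin-treated U87MG cultures were grouped by their labels. The authors deposited raw counts of reads per gene, made with featureCounts 2.0.3 per the file header and the Ensembl release 90 annotation of GRCh38, unstranded, with multiply matching reads left out and the reads of a pair counted separately. The labels list HISAT2 2.1.0 and featureCounts 2.0.4, and the methods name htseq-count. Symbols were joined by Ensembl identifier (57532 of 58302 genes).

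Counts were tested with edgeR 4.0.16 under R 4.3.3 (TMM factors, quasi-likelihood test, no block, genes kept by filterByExpr at a minimum count of 10), over 16751 genes with Benjamini-Hochberg adjustment. Each standard error was the size of the log2 fold change over the root of F. Depths of 29412656 to 31513519 counts limit genes with few counts. Intervals rest on 2 libraries per group. The steps were tested on simulated data. DESeq2 1.42.0 and the alternatives given at the end were tried. The genes and lists were chosen with earlier results of these data known. Genes named from lists were up to 4 per list, called, with at least 10 CPM on average and no overlap between groups. Promoters are those of RefSeq, and a search of 261 alternate scaffolds was added after the data were seen. ChIP-seq and HiChIP were not analysed here.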

Additional observations from a re-analysis of the deposited data

How the results depend on the processing

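Results were recomputed with DESeq2, RLE size factors, library totals, no filter, a stricter filter (10 or more counts in all libraries), a replicate block, thinning to equal depth, counts divided by 2, and each library left out in turn. No log2 fold change changed direction in the 9 tested genes. EGR1 stayed between −0.86 and −0.81 with all libraries and between −0.95 and −0.77 with one left out, and IER2 and IER5 also kept an adjusted p under 0.05 throughout. With DESeq2 1 gene rose in place of 2, since IER3 (0.86) then had an adjusted p = 0.0610 from DESeq2. When single libraries were left out, the number of the genes that rose was 1 to 2, the number that fell 2 (without control replicate 1) to 4 (without control replicate 2) against 3, the number called higher 0 to 1 and the number called lower 0 to 2. Over these fits the log2 fold change ran from −1.27 to −0.48 for NR4A1, from −1.35 to −0.40 for NR4A2 and from 0.68 to 1.00 for IER3. In them the lone library of a group is assumed to vary like the others. Replicate numbers recur in both groups without a stated pairing. Deviations of libraries of equal number correlated at 0.0293 across genes. With the replicate block 1039 genes were called higher and 1568 lower, against 1046 and 1564 without it, and no call on the 9 genes changed. The count of all genes called higher lay between 791 and 1160 over all alternatives. VCL was not called with library totals (−0.995), where 8 in place of 9 genes of the 5 lists were called lower. Levels over unshared exon bases were added after seeing the data. EGR3 was too low to be tested at this depth.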
